A study of Homo sapiens with 14 samples.

Results

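The sites described here were the adenosines listed as edited in all 4 dCas13d-ADAR libraries and all 4 REPAIR.t1 libraries, and in no list of the editors REPAIRv2 and DECOR. Of 26172 distinct sites in the series, 494 (1.89%) met this rule. All 8 dCas13d-ADAR and REPAIR.t1 lists shared 609 sites, and the other 115 had a REPAIRv2 or DECOR entry. A site was its chromosome and position. The members were chosen by their presence or absence in the lists, which the authors' measured levels and filters decide, so being listed 8 times and the lack of a REPAIRv2 or DECOR entry are not findings.

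The series sampled polyadenylated RNA of HEK293T cells, a human embryonic kidney line, after treatment with RNA base editors. It held 14 libraries in 7 groups of 2, which were dCas13d-ADAR with the EZH2 guide or the NT guide, REPAIR.t1 with EZH2_A22 or NT, REPAIRv2 with EZH2_A22 or NT, and DECOR with the MALAT1 guide. Every group received an editor, and how these positions read in cells without one was not analysed here. A site absent from a list may be unedited there, under the authors' threshold or thinly covered. The labels do not spell out NT, A22 or REPAIR.t1, and leave unsaid whether both libraries of a group had their own culture. The p-values rest on the spread among the libraries, pooled in large part over the sites tested, and that spread may be technical.

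ADAR enzymes convert adenosine to inosine in double-stranded RNA, and sequencing reads inosine as guanosine. In editors such as REPAIRv2 an ADAR deaminase domain is joined to a Cas13 protein that can no longer cut RNA but still follows a guide to its target transcript. The deaminase domain can also act on transcripts that the guide does not match, which is the usual meaning of off-target editing for this class of tools. EZH2, named in 1 pair of guides, encodes a histone methyltransferase, and MALAT1 is a long nuclear RNA.

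Each list gave the A-to-G rate of a site as a fraction, called the editing level below. The lists held 5730 to 5834 sites for dCas13d-ADAR and 4356 to 4784 for REPAIR.t1, so the same 494 sites made up 8.47% to 8.62% and 10.3% to 11.3% of them. All 8 libraries were read for 25 and 97 cycles, and the DECOR libraries for 62 and 160. Positions are of hg19, the build in the submitters' processing notes. Without read counts or coverage in the lists, depth is unknown and a level has no counting interval. The gene, exon, strand and surrounding bases of each position were not analysed here.

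The sites were edited at intermediate levels in both editors and stood higher in dCas13d-ADAR. The mean level over the 494 sites was 0.344 and 0.349 in the dCas13d-ADAR EZH2 libraries and 0.350 and 0.360 in its NT libraries. It was 0.318 and 0.305 in the REPAIR.t1 EZH2_A22 libraries and 0.301 and 0.292 in its NT libraries. Each dCas13d-ADAR library lay above each REPAIR.t1 library, with differences of 0.0264 to 0.0681 over the 16 pairs. The editors averaged 0.351 ± 0.00680 for dCas13d-ADAR and 0.304 ± 0.0106 for REPAIR.t1 (SD, n = 4 libraries each), without a test, since the sites were chosen with earlier results known. Sites at a level of at least 0.5 numbered 61 to 83 in dCas13d-ADAR libraries (12.3% to 16.8%) and 25 to 43 in REPAIR.t1 libraries (5.06% to 8.70%).

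**Figure D1:**
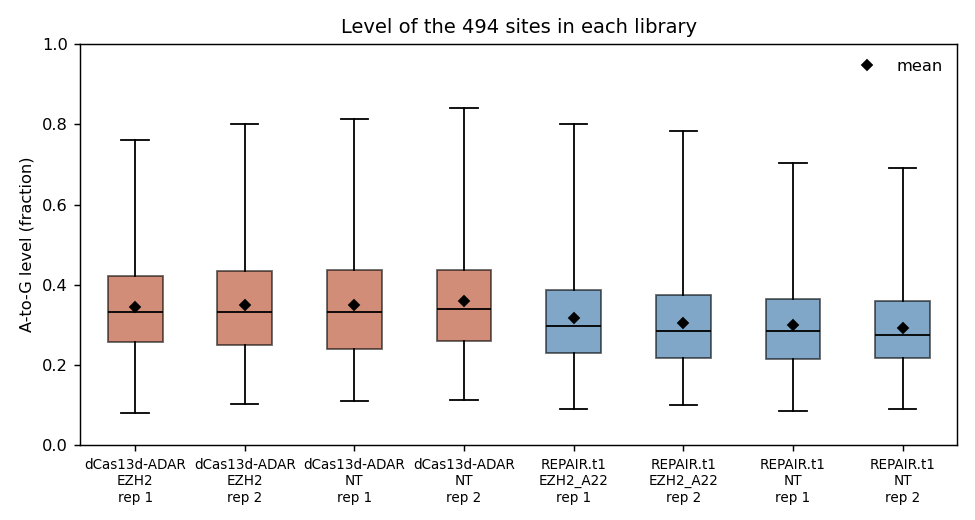
Editing level (fraction, vertical axis) of the 494 sites in each of the 8 libraries. Boxes span the quartiles, lines mark medians, whiskers reach the lowest and highest site, and diamonds mark means; all 4 dCas13d-ADAR means (0.344 to 0.360) lie above all 4 REPAIR.t1 means (0.292 to 0.318).

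Averaged over the 8 libraries, a site's level ran from 0.122 to 0.687, with a median of 0.318 and quartiles at 0.257 and 0.383. Of the 494, 37 sites averaged below 0.2 and 20 averaged at least 0.5. A level of at least 0.5 in some library was common, at 169 sites, but 3 sites reached it in all 8. The lowest level of any member in any library was 0.0800, and 6 sites were below 0.1 in a library, so few members stood close to the lowest level of any of the 8 lists, 0.0645.

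The site with the highest mean was position 377385 on chromosome 20. It read 0.565, 0.760, 0.773 and 0.769 in dCas13d-ADAR (EZH2 libraries, then NT, as in all lists of 4 values below) and 0.533, 0.783, 0.696 and 0.615 in REPAIR.t1 (EZH2_A22, then NT). It is 1 of the 3 sites at 0.5 or more throughout, and its editors overlapped. The others were position 172195559 on chromosome 5, at 0.619 to 0.762 in dCas13d-ADAR and 0.5 to 0.733 in REPAIR.t1, and position 148922367 on chromosome 7, at 0.536 to 0.789 in dCas13d-ADAR and 0.519 to 0.688 in REPAIR.t1. Ranks 4 to 6 went to position 75283477 on chromosome 11 (mean 0.612), position 377574 on chromosome 20 (0.597) and position 134399895 on chromosome 9 (0.588). Ranks 1 and 5 are thus both on chromosome 20, and position 377574 differed little between editors, at 0.586 in dCas13d-ADAR and 0.608 in REPAIR.t1 on average.

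At the other end, position 62334888 on chromosome 11 was the lowest member, at 0.114, 0.104, 0.120 and 0.175 in dCas13d-ADAR and 0.115, 0.106, 0.140 and 0.0976 in REPAIR.t1. It was thus listed 8 times out of 8 although no library exceeded 0.175. The next lowest were position 207026134 on chromosome 2 (mean 0.154), position 170892173 on chromosome 6 (0.160) and position 79478064 on chromosome 17 (0.165).

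Members repeated moderately well between libraries. The SD of a site's level over the 4 libraries of an editor had a median of 0.0684 in dCas13d-ADAR and 0.0621 in REPAIR.t1, set against an SD between site means of 0.110 and 0.0937 in these editors. The middle of the spread was thus smaller than the differences between sites, but not by much. Within an editor the range of the 4 values at a site had a median of 0.151 in dCas13d-ADAR and 0.137 in REPAIR.t1. How much of this spread was counting error was not tested, as the lists give no read counts. Spread grew with level. Among the 124 sites with the lowest means the median SD was 0.0551 in dCas13d-ADAR and 0.0495 in REPAIR.t1, and among the 124 with the highest it was 0.0840 in dCas13d-ADAR and 0.0802 in REPAIR.t1.

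Across the 494 sites, the levels of 2 libraries correlated at a Pearson r of 0.532 to 0.650 within a group (4 pairs), 0.559 to 0.615 between guides of an editor (8 pairs) and 0.451 to 0.520 between editors (16 pairs). The mean levels of the 2 editors correlated at 0.697 (Spearman 0.696). These are descriptions across sites, which share their libraries and are not replicates. Libraries with different guides were thus about as alike as libraries with the same guide, and libraries of different editors were less alike. Of the 50 sites with the highest mean in dCas13d-ADAR, 21 (42.0%) were among the 50 highest in REPAIR.t1.

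Some sites held nearly 1 level throughout. Position 74228116 on chromosome 6 read 0.4, 0.308, 0.325 and 0.383 in dCas13d-ADAR and 0.333, 0.368, 0.372 and 0.353 in REPAIR.t1. Position 139003045 on chromosome 5 read 0.300, 0.286, 0.273 and 0.368 in dCas13d-ADAR and 0.280, 0.280, 0.300 and 0.333 in REPAIR.t1. Position 5896953 and position 41800357, both on chromosome 19, complete the 4 steadiest, at 0.308 to 0.391 and 0.320 to 0.417 over the 8 libraries. These 4 had the smallest SD of log2 odds over the 8 libraries of both editors. That their editors overlapped largely follows from this choice.

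Others moved widely. Position 32264038 on chromosome 20 read 0.273, 0.263, 0.350 and 0.611 in dCas13d-ADAR and 0.682, 0.227, 0.389 and 0.692 in REPAIR.t1. Its 2 REPAIR.t1 EZH2_A22 libraries differed more than the editors did. Position 156242120 on chromosome 1 read 0.300, 0.478, 0.667 and 0.824 in dCas13d-ADAR, but 0.4, 0.438, 0.412 and 0.368 in REPAIR.t1. The spread at this site was on the dCas13d-ADAR side, where the EZH2 libraries lay below the NT libraries. The other 2 of the 4 most variable sites, position 153950006 on chromosome 1 and position 14522319 on chromosome 19, were among those that differed between editors. The SD that ranked them was over both editors and so includes such a difference.

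Whether the editors differed site by site was tested in limma on the log2 odds of the level. The fit covered the 609 sites listed in all 8 libraries, with the guide as a covariate. It draws the spread of each site towards a value shared by all sites, so SEs differed little. The SE was 0.350 at position 5896953 on chromosome 19, among the steadiest, and 0.427 at position 32264038 on chromosome 20, among the most variable. Of the 494 sites, 36 (7.29%) passed an adjusted p of 0.05, against a background of 7.22% for all sites tested, and 458 did not. At an unadjusted p below 0.05 there were 118 (background 25.9%). Of the 36, 33 (6.68% of the members) were higher and 3 (0.607% of the members) lower in dCas13d-ADAR, against 6.57% and 0.657% of all sites tested. The share of differing sites was thus close to that of all sites tested. The median log2 odds difference of dCas13d-ADAR minus REPAIR.t1 was 0.32 over the members and 0.34 over all sites tested, and dCas13d-ADAR had the higher mean at 369 members (74.7%, background 74.7%). At 54 members all 4 dCas13d-ADAR values lay above all 4 REPAIR.t1 values (background 11.5%), and at 9 all lay below (background 1.81%). Without dCas13d-ADAR NT replicate 1 the number of members that passed was 9, and without REPAIR.t1 NT replicate 2 it was 21.

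**Figure D2:**
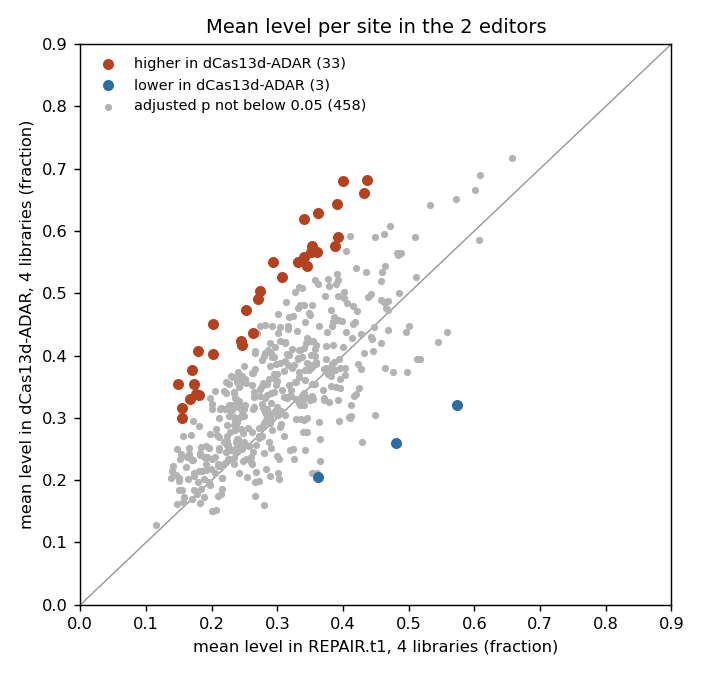
Mean level of each of the 494 sites in REPAIR.t1 (horizontal axis, fraction, 4 libraries) and dCas13d-ADAR (vertical axis, fraction, 4 libraries). The line marks equal levels; the 33 sites that were higher in dCas13d-ADAR in limma lie above the line and the 3 that were lower lie below it, some of them among sites that did not pass.

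The 33 sites that rose in dCas13d-ADAR had median levels of 0.504 in dCas13d-ADAR and 0.273 in REPAIR.t1, with rises of 0.145 to 0.280 in mean level. They lay on 13 chromosomes. At each site the dCas13d-ADAR mean was higher among the EZH2 libraries and among the NT libraries. That agreement largely follows from choosing these sites by their difference over the same libraries. In 27 of them, which are 5.47% of the 494 members, the 4 and 4 libraries did not overlap. Of all sites tested, 5.09% both passed as higher and did not overlap, a similar share. The passing sites were not the most edited ones alone. With members ordered by mean level into 4 equal classes, the lowest held 5 of the 36, the next classes 6 and 7, and the highest 18.

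The rise in mean level at position 62384095 on chromosome 11 was the largest among the members. It read 0.714, 0.556, 0.667 and 0.542 in dCas13d-ADAR, against 0.316, 0.300, 0.429 and 0.316 in REPAIR.t1 (log2 odds difference 1.65, SE 0.36, limma adjusted p = 0.00445). The lowest dCas13d-ADAR value exceeded the highest REPAIR.t1 value by more than the REPAIR.t1 SD of 0.0595. Position 42320953 on chromosome 20 read 0.647, 0.655, 0.611 and 0.806 in dCas13d-ADAR, against 0.389, 0.419, 0.433 and 0.360 in REPAIR.t1 (log2 odds difference 1.67, SE 0.36, limma adjusted p = 0.00445). Here the tightest 3 dCas13d-ADAR values sat together and 1 NT library stood above them.

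Position 35796553 on chromosome 22 read 0.679, 0.714, 0.6 and 0.522 in dCas13d-ADAR, against 0.385, 0.280, 0.353 and 0.429 in REPAIR.t1 (limma adjusted p = 0.00584). Its 2 neighbouring sites within 100 bases were listed more often for dCas13d-ADAR, whose lists were longer throughout. The site 3 bases above it was in all 4 dCas13d-ADAR lists and 1 REPAIR.t1 list. The site 90 bases below it was in 4 dCas13d-ADAR lists, at 0.480 on average, and 2 REPAIR.t1 lists, at 0.226. Beside some other passing sites, a neighbour was in more REPAIR.t1 lists than dCas13d-ADAR lists. Position 46190409 on chromosome 21 read 0.619, 0.6, 0.684 and 0.667 in dCas13d-ADAR, against 0.478, 0.333, 0.455 and 0.300 in REPAIR.t1 (limma adjusted p = 0.00774). Its dCas13d-ADAR values spanned less than its REPAIR.t1 values.

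A pair of sites on chromosome 19 had low REPAIR.t1 levels and rose in dCas13d-ADAR. Position 19014207 read 0.463, 0.439, 0.429 and 0.469 in dCas13d-ADAR, against 0.150, 0.184, 0.225 and 0.250 in REPAIR.t1 (log2 odds difference 1.67, SE 0.35, limma adjusted p = 0.00445). Position 36237649 read 0.417, 0.367, 0.348 and 0.5 in dCas13d-ADAR, against 0.160, 0.2, 0.2 and 0.154 in REPAIR.t1 (limma adjusted p = 0.00445). At both, dCas13d-ADAR averaged more than the highest REPAIR.t1 library, and the gap was wider than either editor's SD.

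Of the 10 largest rises among sites whose editors did not overlap, 4 remain. Position 47106473 on chromosome X read 0.6, 0.435, 0.607 and 0.375 in dCas13d-ADAR, against 0.333, 0.250, 0.190 and 0.318 in REPAIR.t1 (limma adjusted p = 0.0123). Position 99693705 on chromosome 7 read 0.5, 0.659, 0.553 and 0.590 in dCas13d-ADAR, against 0.316, 0.436, 0.356 and 0.306 in REPAIR.t1 (limma adjusted p = 0.0155). The editors came close to overlapping at both. They also did at position 212792997 on chromosome 1, below, where the lowest dCas13d-ADAR value was 0.438 and the highest REPAIR.t1 value 0.395. Position 57100941 on chromosome 11 averaged 0.491 ± 0.0508 in dCas13d-ADAR and 0.270 ± 0.0805 in REPAIR.t1, and position 212792997 on chromosome 1 averaged 0.550 ± 0.0801 in dCas13d-ADAR and 0.331 ± 0.0585 in REPAIR.t1 (SD, n = 4 libraries each; limma adjusted p = 0.0123 and 0.0155). Without dCas13d-ADAR NT replicate 1 these 4 sites no longer passed, nor did the sites on chromosome 21 and, below, chromosome 7, with limma adjusted p-values of up to 0.102 over the 12 sites named here as rising or falling. Without REPAIR.t1 NT replicate 2, 3 of the 12 no longer passed (positions 99693705, 57100941 and 46190409), and leaving out any other single library ended the call at 1 or 2.

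At 3 members the level fell in dCas13d-ADAR by the test. Position 30671149 on chromosome 7 read 0.312, 0.407, 0.286 and 0.277 in dCas13d-ADAR, against 0.5, 0.606, 0.647 and 0.538 in REPAIR.t1 (log2 odds difference -1.49, SE 0.36, limma adjusted p = 0.00643). Position 34101308 on chromosome 11 read 0.273, 0.2, 0.308 and 0.259 in dCas13d-ADAR, against 0.472, 0.458, 0.462 and 0.531 in REPAIR.t1 (limma adjusted p = 0.0112). At these 2 sites, 0.405% of the members, the editors did not overlap. Of all sites tested, 0.493% both passed as lower and did not overlap. The remaining one, position 102548598 on chromosome 14, read 0.146, 0.367, 0.140 and 0.167 in dCas13d-ADAR, against 0.353, 0.370, 0.283 and 0.444 in REPAIR.t1 (limma adjusted p = 0.0367). It overlapped through 1 dCas13d-ADAR EZH2 library, and it is named after its values were seen.

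**Figure D3:**
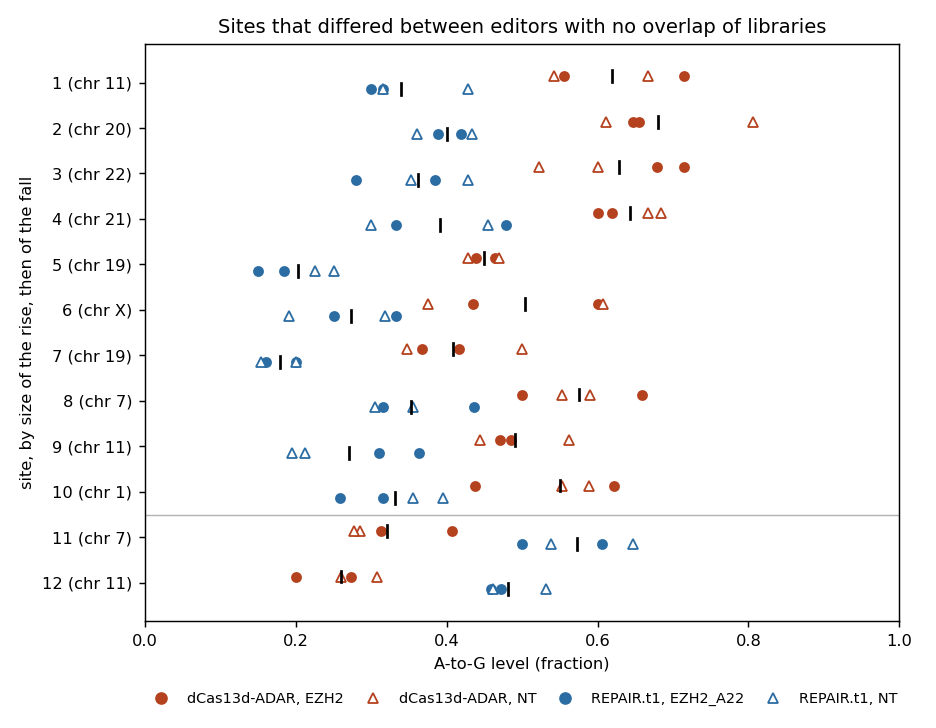
Editing level (fraction, horizontal axis) in each library at the 10 largest rises (rows 1 to 10) and both falls (rows 11 and 12) without overlap between editors; rows are ordered by the size of the difference and labelled by chromosome. Filled circles are EZH2 or EZH2_A22 libraries, open triangles NT libraries, and bars the means of 4 libraries; dCas13d-ADAR values lie right of REPAIR.t1 values in the upper 10 rows and left of them in the lower 2.

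The difference between editors was seen with either guide. Between the EZH2 libraries of dCas13d-ADAR and the EZH2_A22 libraries of REPAIR.t1, dCas13d-ADAR minus REPAIR.t1 averaged 0.0354 over the members. It was positive at 321 of them (65.0%). Between NT libraries it averaged 0.0583 and was positive at 368 (74.5%). Whether the 2 values differ was tested site by site only, as follows.

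No change with the guide was detected at any of these sites when both editors were fitted together. The EZH2 guide of dCas13d-ADAR and the EZH2_A22 guide of REPAIR.t1 were taken as 1 level, called EZH2. The labels do not say whether they are the same, so the interaction below cannot tell editor from guide label. The EZH2 libraries averaged 0.329 ± 0.0212 and the NT libraries 0.326 ± 0.0341 over the members (SD, n = 4 libraries each, both editors). These SDs include the difference between editors, with means of 0.347 and 0.311 for EZH2 and 0.355 and 0.297 for NT in dCas13d-ADAR and REPAIR.t1. EZH2 means were higher at 269 members (54.5%, background 55.0%). In limma, with the editor as a covariate, 0 members passed an adjusted p of 0.05 (background 0.00%), and 18 had an unadjusted p below 0.05 (background 3.78%). The median SE of a site's log2 odds difference was 0.36, and a p that misses the threshold does not show that the guides gave equal levels. The guide effect also passed at 0 members as an interaction with the editor (background 0.00%), with 33 at an unadjusted p below 0.05 (background 6.73%) and a smallest limma adjusted p among members of 0.473.

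The smallest adjusted p for the guide was 0.375 in limma, shared by sites that moved in opposite directions. Position 86387526 on chromosome 6 read 0.348 and 0.372 with EZH2 and 0.149 and 0.122 with NT in dCas13d-ADAR, and 0.441 and 0.357 with EZH2_A22 and 0.278 and 0.294 with NT in REPAIR.t1. Position 14591125 on chromosome 19 read 0.267 and 0.278 with EZH2 and 0.619 and 0.524 with NT in dCas13d-ADAR, and 0.292 and 0.235 with EZH2_A22 and 0.353 and 0.368 with NT in REPAIR.t1. The EZH2 and NT libraries did not overlap at either site, which happened at 5 members with EZH2 above NT and at 4 with EZH2 below (backgrounds 0.821% and 0.821%). Both sites are named after their values were seen. In the dCas13d-ADAR libraries alone, 1 member passed, position 156242120 on chromosome 1, at 0.389 with EZH2 against 0.745 with NT (log2 odds difference -2.23, SE 0.54, limma adjusted p = 0.0228, 2 libraries against 2). In REPAIR.t1 it stood at 0.419 with EZH2_A22 and 0.390 with NT, and its interaction did not pass.

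Most of the 494 sites stood apart from each other. The distance to the nearest other member had a median of 108929 bases. Another member lay within 50 bases of 38 sites (7.69%), within 100 bases of 55 (11.1%) and within 1000 bases of 107 (21.7%). Other listed sites were much closer. The nearest site in any of the 8 lists lay at a median of 39.5 bases, and 280 members (56.7%) had one within 50 bases, while 73 (14.8%) had none within 1000 bases. The 8 lists together held 17194 sites, members among them, so the 2 sets of distances are not alike in number. The share with a site of the same class within 50 bases was 7.69% for the members. It was 1.68% for the 475 sites in 7 of the 8 libraries and 18.1% for the 8247 sites in 1, with none in REPAIRv2 or DECOR. A larger class has more chances of such a neighbour, so the share of the 8247 is not comparable with the others.

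With gaps of at most 100 bases, 55 members formed 25 runs, 20 of 2 sites and 5 of 3, and 439 stood alone. Neighbours in a run were often edited at different levels. The highest and lowest site of a run differed by a median of 0.0614 in mean level, and by up to 0.224. In 4 runs the same site was the highest in all 8 libraries, and in 8 runs in at least 7. All members of a run leaned the same way between editors in 19 of 25 runs, of which 16 leaned towards dCas13d-ADAR. Of all members 74.7% leaned towards dCas13d-ADAR, so such agreement can arise often without a link between neighbours, which was not tested. Sites this close may share reads, so they are not counted as independent here.

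Sites 1 base apart could differ in the same way in every library. At positions 79804384 and 79804385 on chromosome 17 the first site read 0.455, 0.576, 0.514 and 0.5 in dCas13d-ADAR and 0.4, 0.455, 0.386 and 0.275 in REPAIR.t1. The second read 0.171, 0.382, 0.268 and 0.270 in dCas13d-ADAR and 0.206, 0.167, 0.143 and 0.159 in REPAIR.t1. The first site was thus the higher in 8 of 8 libraries. Positions 74228114, 74228116 and 74228117 on chromosome 6 averaged 0.342, 0.355 and 0.210, and the second exceeded the third in 8 of 8 libraries. The first exceeded the second in 2 of 8, so only the last of the 3 stood apart.

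Among the 5 runs of 3 sites, the one with the highest site mean was at positions 41903473, 41903474 and 41903478 on chromosome 6. They averaged 0.544, 0.430 and 0.609 in dCas13d-ADAR, and 0.464, 0.442 and 0.471 in REPAIR.t1. The first exceeded the second in 6 of 8 libraries, fell below it in 1 and equalled it in 1. Positions 33789939, 33789944 and 33789946 on chromosome 1 averaged 0.305, 0.337 and 0.455 in dCas13d-ADAR and 0.288, 0.339 and 0.399 in REPAIR.t1. None of these 6 sites passed the test between editors. At positions 42988766, 42988771 and 42988785 on chromosome 6 the averages were 0.380, 0.337 and 0.526 in dCas13d-ADAR and 0.323, 0.181 and 0.308 in REPAIR.t1. The last 2 of them rose in dCas13d-ADAR (limma adjusted p = 0.0387 and 0.0155), and the first had an adjusted p of 0.664.

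**Figure D4:**
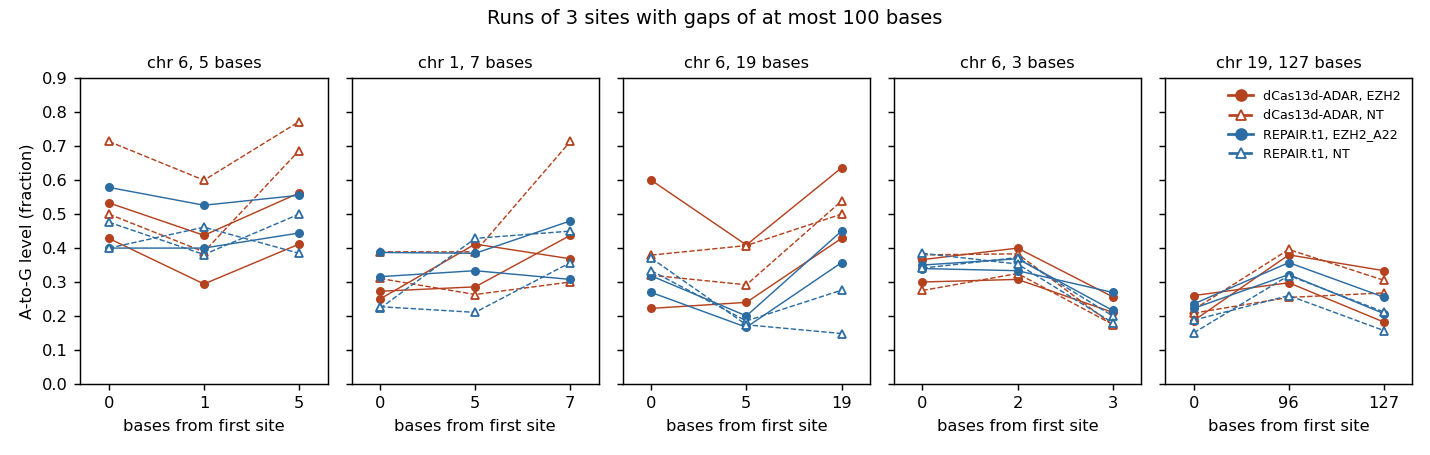
Editing level (fraction, vertical axis) in each of the 8 libraries at the 5 runs of 3 members, against the distance in bases from the first site of the run (horizontal axis, sites evenly spaced). Lines join the sites of 1 library and have no meaning between them; in the fourth panel all libraries drop at the last site, 1 base after the second.

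The rule excluded a REPAIRv2 or DECOR entry at the position itself, not beside it. A DECOR site lay within 50 bases of 162 members (32.8%) and within 10 bases of 48 (9.72%). REPAIRv2 sites lay within 50 bases of 12 members (2.43%), from far shorter lists. At the run on chromosome 6 around position 74228116, for example, a REPAIRv2 site lay 1 base from that position. The exclusion therefore removed positions, not neighbourhoods.

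Sites listed in fewer of the 8 libraries, again with none in REPAIRv2 or DECOR, show what stood just outside the rule. There were 475 sites in 7 of 8 libraries, with a median listed level of 0.276, against 0.309 for the 494 sites in all 8. The median was 0.267 in 6, 0.261 in 5 and 0.250 in 4, 3, 2 and 1 libraries. Of the 475, 317 (66.7%) were missing from 1 REPAIR.t1 library and 158 (33.3%) from 1 dCas13d-ADAR library, most often from REPAIR.t1 NT replicate 2 (98 sites), which had the shortest of the 8 lists. The share with another listed site within 50 bases was 56.7% for the sites in all 8, 45.1% in 7 and 32.2% in 1. A DECOR site lay within 50 bases of 32.8%, 25.3% and 13.7% of these same classes. The medians are of listed values only, so a level under the authors' threshold is missing from every class but that of all 8. These are descriptions with no test. How far that threshold or coverage of the transcript sets them was not tested.

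**Figure D5:**
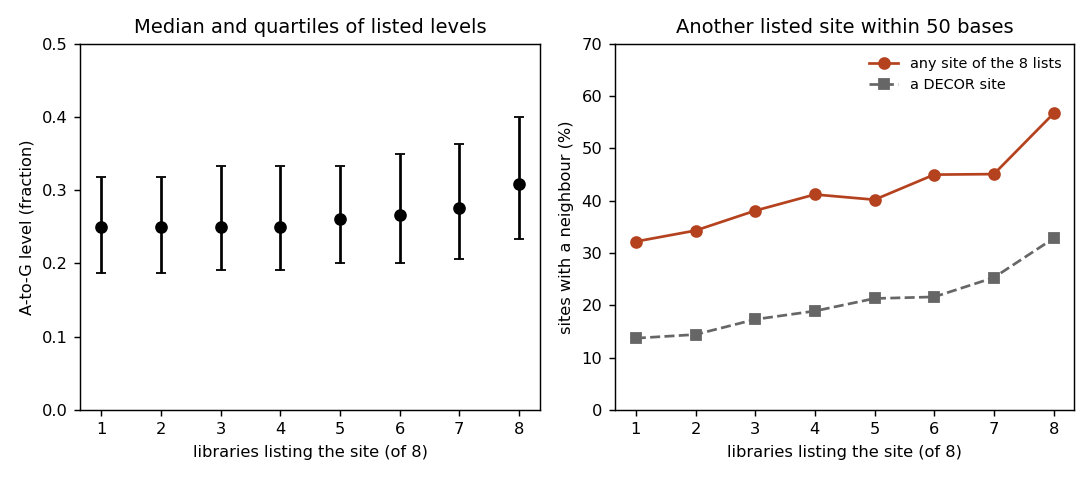
Left, median listed level (fraction) with quartiles as bars, for sites listed in 1 to 8 of the 8 libraries (horizontal axis) and in no REPAIRv2 or DECOR list. Right, percent of these sites with another site of the 8 lists (circles) or a DECOR site (squares) within 50 bases; both panels are highest at 8 libraries, at 0.309, 56.7% and 32.8%.

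The 115 sites that were in all 8 libraries but also in a REPAIRv2 list (92) or a DECOR list (30, with 7 in both) had higher levels than the members. They averaged 0.450 ± 0.00490 in dCas13d-ADAR and 0.389 ± 0.00655 in REPAIR.t1, against 0.351 and 0.304 for the members. The rule set these groups apart by listing, so the difference is given without a test. Of the 115, 8 (6.96%) passed the test between editors, close to the 7.29% of the members.

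Members lay on 23 chromosomes. Chromosome 19 held the most, 72 sites (14.6%), against 9.78% of the sites listed in 1 to 7 of the libraries under the same exclusions. Chromosome 1 held 54 (10.9%, against 12.0%), chromosome 11 held 40 (8.10%, against 6.29%), chromosome 17 held 39 (7.89%, against 6.58%) and chromosome 6 held 31 (6.28%, against 4.37%). Chromosomes 10, 18 and 13 held 4, 2 and 1. The share on chromosome 19 was 13.1% among sites in 7 libraries and 9.34% among sites in 1. Chromosome lengths and the expression of their genes were not weighed here, so the shares are compared only between lists.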

How the data were processed

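RNA editing was measured in polyadenylated RNA of HEK293T cells. Each library has its own list, in which the authors deposited A-to-G rates as fractions between 0 and 1, per the file headers. The submitters' processing notes name cutadapt, STAR 2.6.1b, hg19 and GRCh37; the program that called sites, its thresholds and any coverage minimum are not stated there or in the labels. Read counts were not used here, so depth is unknown.

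Members were found by position, and members, lists and the rule for naming sites were chosen with earlier results of these data known. Levels were converted to log2 odds after an offset of 0.01 on both the level and its complement, then fitted in limma 3.58.1 (R 4.3.3) over the 609 sites listed in all 8 libraries, with Benjamini-Hochberg adjustment over the 609. The fit was tested on simulated data. Groups came from the titles.

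Sites were named as the 10 largest rises and falls that passed without overlap, the 6 highest and 4 lowest means, the 4 most and least variable, 3 of the 5 runs of 3 sites (ties broken by mean level) and the closest pairs. Alternatives were another offset, untransformed levels, a trended spread, minimum levels, the replicate number as a block, 1 guide or editor at a time, each library left out, and other gaps. Python 3.11.15, pandas 2.3.3, numpy 2.4.6 and matplotlib 3.10.9 were used.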

Additional observations from a re-analysis of the deposited data

Results flagged for a closer look

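In the 4 libraries of an editor, 1 value stood far from the other 3 at 3 of the named sites, by Dixon's ratio of the gap to the range, among 88 sets of 4 values; chance alone flags about 1 set in 20. At position 377385 on chromosome 20, dCas13d-ADAR EZH2 replicate 1 read 0.565, with a ratio of 0.939. At position 170892173 on chromosome 6, REPAIR.t1 EZH2_A22 replicate 1 read 0.267, with a ratio of 0.888. At position 62384095 on chromosome 11, REPAIR.t1 NT replicate 1 read 0.429, with a ratio of 0.877.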

How the results depend on the processing

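The number of members that differed between editors, 36, was 35 to 39 with another offset, untransformed levels, a trended spread, a mean level of at least 0.2, no guide covariate or the replicate block (36, of which 35 were shared). Of the main 36, 31 also passed on untransformed levels and 34 with a trended spread. The number that passed was 21 with NT libraries alone and 2 with EZH2 libraries alone, where 4 libraries were fitted. It was 9 to 35 with 1 library left out. Of 192 refits of the 12 named rises and falls, 157 still passed, 35 did not and 0 reversed. The guide test passed at 0 members in each setting but the dCas13d-ADAR libraries alone, with 1, and the interaction at 0 in each setting. Deviations of same-numbered libraries correlated at -0.0415 to 0.0551 over 6 pairs of groups, across the 609 sites tested. These values gave no sign that replicate numbers pair the libraries. They cannot exclude it, since noise at each site would also keep them low. Under the block the guide and interaction tests still passed at 0 members, with 19 and 34 at an unadjusted p below 0.05, against 18 and 33 without it.

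A level of at least 0.2 in all 8 libraries left 280 sites, at mean levels of 0.410 in dCas13d-ADAR and 0.359 in REPAIR.t1, with 6.43% near another member. With no REPAIRv2 or DECOR site within 50 bases 326 were left, at 0.358 in dCas13d-ADAR, with 7.06% near another member. With 1 library left out of the rule there were 532 to 592 sites, at 0.342 to 0.348 in dCas13d-ADAR and 0.295 to 0.306 in REPAIR.t1. The share near another member was 7.69% within 50 and 21.7% within 1000 bases, against 11.1% within 100. Depth at a site, which limits each level, is unknown.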

Other observations

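Members on chromosome 19 leaned towards dCas13d-ADAR more often than members elsewhere. The dCas13d-ADAR mean was the higher at 64 of 72 members on chromosome 19 (88.9%) and at 305 of 422 elsewhere (72.3%). Among the other sites listed in all 8 libraries it was the higher at 7 of 7 on chromosome 19. Among sites in 7 of the 8 libraries it was the higher at 43 of 62 on chromosome 19 (69.4%) and at 255 of 413 elsewhere (61.7%), where the gap was smaller. These sites lack a value in 1 library, of REPAIR.t1 at 317 sites and of dCas13d-ADAR at 158. Their means are of listed values only, so these shares are not fully comparable with those of the members. In none of the 20 chromosomes with at least 5 members did fewer members lean towards dCas13d-ADAR than away from it. The chromosome was picked after its values were seen and no test of it was made.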
